A study of Aedes albopictus with 6 samples.

Results

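Genes for ion channels that also give circular RNAs (circRNAs) were examined in Aedes albopictus, the Asian tiger mosquito, from libraries made of whole bodies. Members were the host genes whose deposited product names hold the words channel, acetylcholine receptor subunit, gamma-aminobutyric, glutamate receptor ionotropic, innexin or transient receptor potential. Of 92 host genes that matched, 1 anion-selective channel and 3 further genes were left out by the rule. This left 88 of 4166 host genes, with 246 of the 8690 circRNAs listed. The rule used names and no measured value, but it was chosen with earlier results of these data known. Virgin females and virgin males of the Foshan strain, all 2 days old, were compared, with 3 libraries per sex and 30 mosquitoes in each pool. Ribosomal RNA was depleted and linear RNA digested with the exonuclease RNase R before sequencing. The values are reads across back-splice junctions, so linear transcripts and channel proteins were not measured.

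Ion channels are membrane proteins with a pore that lets selected ions through when voltage, a transmitter, an internal messenger or mechanical force opens it, and together they set the excitability of neurons, muscles and sensory cells. A circRNA is the closed loop left when splicing joins the end of an exon back to the start of the same exon or of an earlier one, and in Drosophila such loops are abundant in the nervous system. Several channels here, among them the voltage-gated sodium channel para and the receptors for acetylcholine and gamma-aminobutyric acid (GABA), are also targets of insecticides.

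The female libraries held 16792, 17197 and 13322 junction reads and the male libraries 21624, 24852 and 27257. Female replicate 3 was thus the shallowest. Across the series, the quasi-likelihood test of edgeR, adjusted by the Benjamini-Hochberg method, called 42 of 870 tested host genes (4.83%). Of these, 22 had the higher level in females (2.53%) and 20 in males (2.3%), while a fit that left out male replicate 2 called 6 and 6.

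The 88 channel genes held 2442 junction reads, 773 in females and 1669 in males. They made up 1.70%, 1.69% and 1.48% of the junction reads of the female libraries (1.62 ± 0.125, SD, n = 3) and 1.98%, 2.33% and 2.42% of those of the male libraries (2.25 ± 0.231, SD, n = 3). The female and male shares did not overlap, and the difference of the means, female minus male, was -0.624 percentage points. No p-value is given for a sum over chosen genes. Without the 5 genes with the most reads, which held 31.6% of member reads, the share was 1.15% ± 0.159 in females and 1.52% ± 0.0789 in males, a difference of -0.366 percentage points. In whole bodies, fewer cells of a type and less RNA per cell cannot be told apart.

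More channel genes and circRNAs were also seen in males, whose libraries were deeper. As deposited, 49, 46 and 40 channel genes had a read in the female libraries and 65, 65 and 69 in the male libraries. Over all host genes these counts were 1893, 2121 and 1861 in females and 2457, 2511 and 2645 in males. Each library was then thinned to 13322 reads. Expected channel genes with at least 2 reads were then 37.2 ± 4.57 in females and 46.0 ± 1.55 in males. For all host genes they were 1557 ± 32.1 in females and 1597 ± 12.6 in males. In the thinned libraries the expected number of channel circRNAs with at least 2 reads was 56.3, 45.7 and 41 in females (47.6 ± 7.83) and 59.0, 60.3 and 61.4 in males (60.2 ± 1.18). The same count over all circRNAs was 2141 ± 36.6 in females and 2164 ± 41.5 in males, a difference smaller than its SD. At a limit of 1 read the thinned counts differed for all circRNAs too, at 2809 ± 200.5 in females and 3540 ± 50.1 in males, and for channel circRNAs were 65.0 ± 8.89 in females and 106.2 ± 0.0835 in males. Reads in both sexes were found for 60 channel genes, in females only for 5 and in males only for 23, and 26 channel genes had reads in all 6 libraries. The 23 with male reads only made up 26.1% of channel genes, near the 26.5% of all host genes, while those with female reads only made up 5.68% of channel genes and 13.7% of all host genes. Channel genes held a median of 15.5 reads and all host genes 8, and these shares were not matched for read number. Most loops were rare, since 99 of the 246 circRNAs appeared in 1 library only, with at most 8 reads, and 36 genes held under 10 reads in total.

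**Figure D1:**
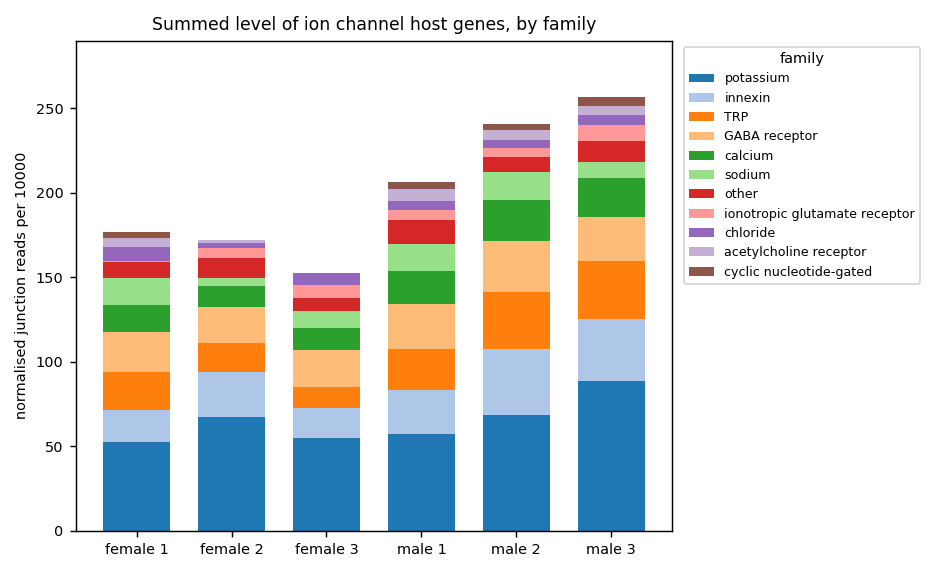
Summed level of the 88 ion channel host genes in each library (x axis; 3 female libraries left, 3 male libraries right), in normalised junction reads per 10000 of the library (y axis). Each colour is a channel family and each bar the sum in 1 library; the female bars reach 152 to 177 and the male bars 206 to 257.

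Levels are given as reads per 10000 junction reads with a host gene in the normalised library, whereas the shares above are of all junction reads. A junction is counted at 1 position, so these values are not divided by length. The plot of summed level by family shows every male library above every female library in the sum over all families. Taken singly, only the calcium, transient receptor potential, acetylcholine receptor and GABA receptor families were separated in this way. In every other family the libraries of the sexes overlapped. Potassium channels were the largest family, with 27 genes, 77 circRNAs and 780 reads, at 58.2 ± 7.84 in females and 71.4 ± 15.8 in males. In this family female replicate 2, at 67.2, lay above male replicate 1, at 57.3. The 4 chloride channel genes formed the only family with the higher mean in females, at 6.20 ± 2.92 in females and 5.39 ± 0.718 in males, and its libraries overlapped.

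Of the 88 genes, 27 had enough reads to be tested, and they held 73.8% of member reads. None of the 27 was called in either direction by edgeR, against the 4.83% called among all tested host genes, and DESeq2 called 0 as well. At an unadjusted p under 0.05 there were 0 genes with higher values in females (background 8.85%) and 2 with higher values in males (background 9.31%). Female and male libraries did not overlap for 3 of the 27 genes, or 11.1%, all higher in males, against 13.1% of all tested host genes that were separated in that direction and 11.7% in the other. The counts higher in males were thus near or below the background. Those higher in females were 0, against 8.85% and 11.7%, and 27 genes are too few to tell 0 calls from 4.83%. Of the 27 log2 fold changes of female over male, 21 lay below 0, and their median was -0.33, against a share of 52.3% below 0 and a median of -0.05 over all tested host genes. Leaving out female replicate 1 gave a median of -0.69, and leaving out female replicate 3 gave -0.15. The SE of a single fold change ran from 0.31 to 1.23 on the log2 scale, with a median of 0.75.

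**Figure D2:**
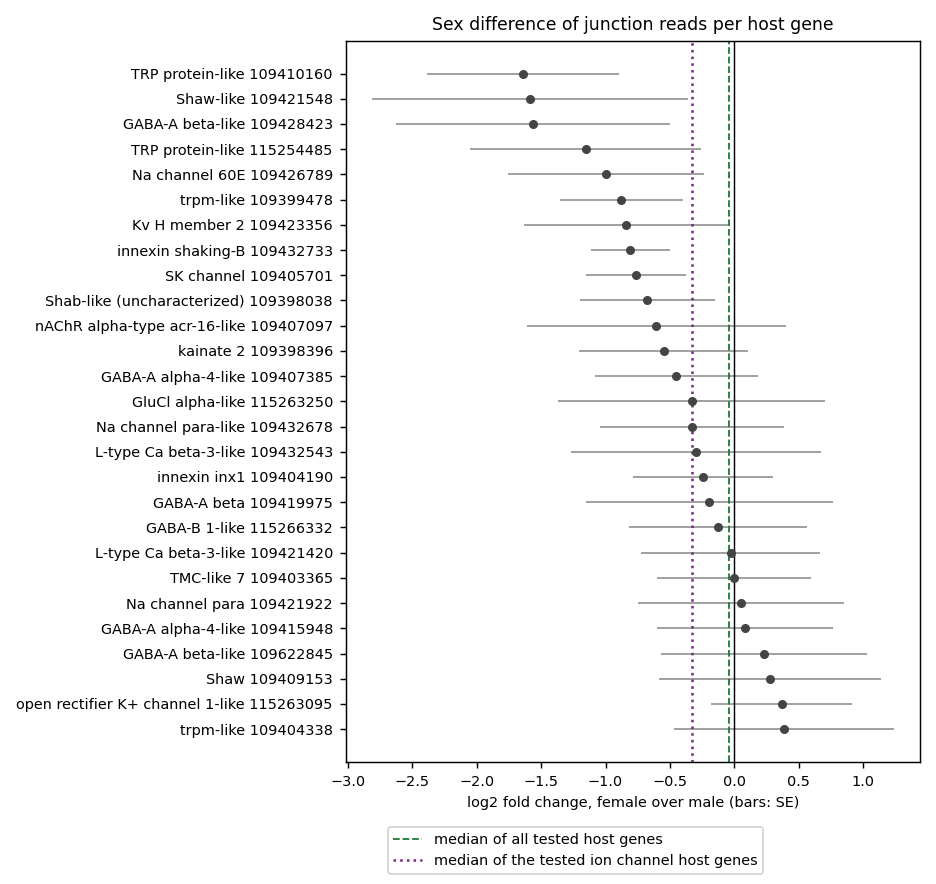
Log2 fold change of female over male (x axis, points, with bars of 1 SE) for each of the 27 tested ion channel host genes (y axis, labelled by short product name and the number of the gene identifier). The dotted line marks their median of -0.33 and the dashed line the median of -0.05 over all tested host genes; most bars reach or cross 0.

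The plot of fold changes gives all 27 genes. Its lowest point, at -1.64, belonged to a transient receptor potential (TRP) gene, and its highest, at 0.39, to a trpm-like gene. The SE exceeded the size of the fold change for 17 of the genes. Of 21 tested genes chosen to be named, 10 had a fold change whose sign turned when 1 library was left out, among them each of the 21 whose fold change lay above 0.

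Voltage-gated sodium channels carry the rising phase of the action potential. In Drosophila a single gene, para, encodes the main one, and its insect counterparts are the target of pyrethroids. A pair of genes with this name was listed here. The para-like gene (LOC109432678) gave 12 circRNAs, the most of any member, from only 55 reads, with 13, 3 and 3 reads in the female libraries and 12, 18 and 6 in the male libraries. The para gene (LOC109421922) gave 10 circRNAs, with 11, 1 and 5 reads in females and 10, 10 and 5 in males. Their reads were spread thinly over many junctions, and the most abundant circRNA held 21.8% of the reads of the para-like gene and 19.0% of those of para. Log2 fold changes were -0.33 (SE 0.71, edgeR adjusted p = 0.869) for para-like and 0.05 (SE 0.80, edgeR adjusted p = 0.982) for para. The related sodium channel 60E gene (LOC109426789) was one of the 3 genes without overlap. It had 2, 4 and 5 reads in females and 9, 12 and 14 in males, or 2.49 ± 1.32 in females and 4.92 ± 0.562 in males. Its fitted change was -0.995 on the log2 scale (SE 0.76, edgeR adjusted p = 0.526).

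Voltage-gated calcium channels let calcium in on depolarisation and so trigger transmitter release and contraction. The pair of L-type beta subunit genes, which encode an auxiliary subunit that brings the pore to the membrane, were the only calcium channel genes tested. The level of LOC109421420 was 4.37 ± 2.65 in females and 4.56 ± 1.08 in males. That of LOC109432543 was 2.26 ± 1.44 in females and 2.71 ± 1.86 in males. Neither difference exceeded its SD. The T-type channels, which open at low voltage, had almost no female reads. The alpha-1G gene LOC109414162 had 0 reads in all 3 female libraries and 3, 10 and 3 in the male libraries, and the alpha-1G-like gene LOC115257200 had 0, 1 and 0 in females and 8, 6 and 2 in males. Set against a floor of 3 reads summed over the females, the 16 male reads of LOC109414162 correspond to a level 3.47-fold lower in females. That value leaves out the spread between libraries, and 10 of the 16 reads came from male replicate 2. LOC109414162 was named because all its reads lay in 1 sex, so its lack of female reads is no separate result. Both T-type genes failed the filter on low counts, and without that filter their adjusted p by edgeR was 0.320 and 0.569. The calcium release-activated channel LOC109426683, an Orai-type channel that opens when internal stores empty, showed 0, 0 and 1 reads in females and 2, 12 and 4 in males. A loop of the same span and spliced length was listed in LOC109417780, of the same name, with 0, 0 and 2 reads in females and 2, 1 and 0 in males. Their summed level was 0, 0 and 2.32 in females and 1.92, 5.39 and 1.56 in males, so the libraries overlapped. LOC115257200 and LOC109426683 were picked after their values were seen. All 15 genes of the calcium family together stood at 13.9 ± 1.91 in females and 22.1 ± 2.53 in males, without overlap. This separation rested on the T-type pair, and without it the libraries overlapped. Male replicate 1 stood at 19.2, of which the T-type pair held 5.29. Female replicate 1 stood at 16.1, with 0 from that pair. By its name a calcium-activated chloride channel regulator (LOC115259801) was also placed in this family.

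Potassium channels repolarise the membrane and set its resting potential. The small conductance calcium-activated (SK) channel, which is opened by calcium through bound calmodulin and slows repeated firing, had the most reads among them (LOC109405701). It had 8, 28 and 17 reads in the female libraries and 31, 42 and 68 in the male libraries. Female replicate 2 lay above male replicate 1 once normalised, at 16.6 in the female and 14.9 in the male, so the sexes overlapped. The mean was 11.6 ± 6.005 in females and 19.6 ± 6.08 in males. The log2 fold change was -0.76 (SE 0.39, edgeR adjusted p = 0.297). Of its 8 circRNAs, an exon-exon loop of 515 spliced bases on contig NW_021837931.1, from 6179412 to 6187962 on the minus strand, held 76.3% of the reads, with 37 in females and 111 in males. A loop from the same upstream splice site to a far exon, with a span of 83841 bases, had 7 reads in females and 2 in males.

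The other potassium channels were lower in reads. A gene whose first product is uncharacterized and whose other products are named Shab-like (LOC109398038), a delayed rectifier in Drosophila, had 4, 14 and 10 reads in females and 22, 27 and 20 in males. Its log2 fold change was -0.67 (SE 0.52, edgeR adjusted p = 0.529). The subfamily H member 2 gene (LOC109423356), a relative of the human ERG channel, averaged 2.61 ± 2.41 in females and 4.94 ± 0.457 in males, and Shaw-like LOC109421548 averaged 1.03 ± 1.79 in females and 2.87 ± 1.68 in males. Other members went the other way in the mean. The open rectifier channel 1-like gene (LOC115263095), a leak channel with a pair of pore domains in Drosophila, had 11, 23 and 6 reads in females and 12, 9 and 26 in males, a log2 fold change of 0.37 (SE 0.55, edgeR adjusted p = 0.787). Its leading circRNA began 213 bases into the gene. Shaw (LOC109409153) had a log2 fold change of 0.28 (SE 0.86). Among the untested members, the KQT member 1-like gene LOC109408799, of the family that carries the muscarine-sensitive current in vertebrates, had 4, 3 and 10 reads in females and 0, 2 and 0 in males. It was noticed after its values were seen, its adjusted p without the filter was 0.355 by edgeR, and 10 of its 17 female reads came from female replicate 3. Shaker (LOC109424932), the fast inactivating channel first cloned in Drosophila, had 0, 7 and 7 reads in females and 5, 6 and 0 in males.

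**Figure D3:**
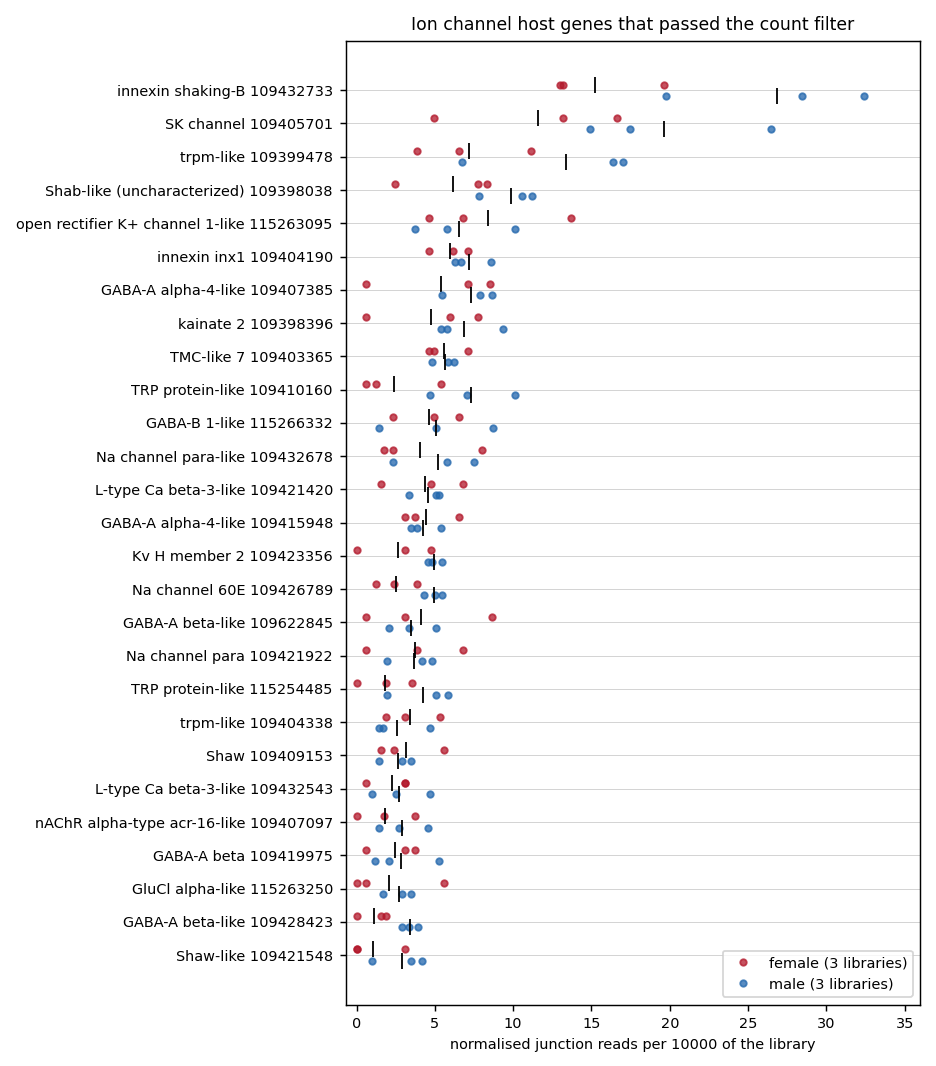
Level of each of the 27 tested ion channel host genes in normalised junction reads per 10000 of the library (x axis), with genes down the page in order of total reads (y axis). Points are libraries, 3 female in red above 3 male in blue, and the black ticks are the means of each sex; the sexes overlap for all but shaking-B, GABA-A beta-like LOC109428423 and sodium channel 60E.

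Receptor channels opened by transmitters carry fast synaptic signals. Receptors for GABA, the main inhibitory transmitter, gave 297 reads from 8 genes, at 22.2 ± 1.14 in females and 27.6 ± 1.99 in males, without overlap of the libraries. This separation rested on the type B receptor genes among the 8. For the alpha-4 and beta subunit genes alone, a split made after the values were seen, the libraries overlapped. Female replicate 3, at 11.6 for alpha-4 plus 7.74 for beta, lay above male replicate 3, at 8.95 plus 10.1. The alpha-4-like subunit gene LOC109407385 had 1, 12 and 11 reads in females and 18, 19 and 14 in males. All 11 of its circRNAs shared a splice site with another of them, and the leading one held only 22.7% of its reads. Its log2 fold change was -0.45 (SE 0.63), and 0.09 without female replicate 1. The beta-like subunit gene LOC109428423 had a single circRNA, with 3, 0 and 2 reads in females and 7, 7 and 10 in males. Its female values of 0 to 1.85 lay below the male values of 2.91 to 3.89, and its log2 fold change was -1.56 (SE 1.06, edgeR adjusted p = 0.456). The other alpha-4-like gene, LOC109415948, had 6, 11 and 4 reads in females and 8, 13 and 9 in males, at a log2 fold change of 0.08 (SE 0.68). The beta-like gene LOC109622845 showed no such separation, with 14, 1 and 4 reads in females and 7, 5 and 13 in males. The type B receptor genes also matched by name, although type B receptors couple to G proteins and hold no pore. The larger of them (LOC115266332) had a log2 fold change of -0.13 (SE 0.69).

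Excitatory receptors were represented more thinly. The kainate 2 glutamate receptor gene (LOC109398396) had 1, 10 and 10 reads in females and 12, 13 and 24 in males, or 4.77 ± 3.70 in females and 6.84 ± 2.18 in males. The 7 nicotinic acetylcholine receptor subunit genes, which encode the target of neonicotinoids, gave 54 reads in all. They summed to 2.24 ± 2.50 in females and 6.14 ± 0.647 in males, without overlap, and female replicate 3 had none. The acr-16-like gene (LOC109407097) held 30 of those reads, in 1 loop that runs from an exon to a position outside the annotated gene. The glutamate-gated chloride channel, an inhibitory receptor of invertebrates and the target of ivermectin, had 9, 1 and 0 reads in females and 6, 4 and 9 in males for its alpha-like gene (LOC115263250). Another gene of this channel, LOC109419233, was untested and had the higher mean in females, with 2, 2 and 6 reads in females and 1, 3 and 5 in males.

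TRP channels are cation channels of sensory cells and epithelia. The founding member, trp, opens in Drosophila photoreceptors on illumination. The 8 TRP genes stood at 17.3 ± 4.93 in females and 30.8 ± 5.83 in males, without overlap. This separation rested on the 4 genes named TRP protein. Without them, a split made after the values were seen, the libraries overlapped. Female replicate 1 stood at 22.2, of which those 4 genes held 4.94. Male replicate 1 stood at 24.1, of which they held 12.99. The TRP protein-like gene LOC109410160 had the lowest log2 fold change of the 27 tested genes. It had 2, 1 and 7 reads in the female libraries and 21, 17 and 12 in the male libraries, and after normalisation female replicate 3, at 5.42, lay above male replicate 3, at 4.67. The mean was 2.42 ± 2.62 in females and 7.28 ± 2.72 in males, a log2 fold change of -1.64 (SE 0.75, edgeR adjusted p = 0.225). Its 1 circRNA lies on contig NW_021838429.1, from 710729 to 712037 on the plus strand, and measures 582 spliced bases. Tested as a circRNA, it had a log2 fold change of -1.63 (adjusted p = 0.154 by edgeR), and without female replicate 3 it was -2.90 with an adjusted p of 0.0453.

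The trpm-like gene LOC109399478, named after a channel that in Drosophila takes part in magnesium and zinc balance, had the third largest number of reads of all members. It had 18, 11 and 5 reads in females and 14, 41 and 42 in males, so that male replicate 1 lay among the female libraries. The log2 fold change was -0.88 (SE 0.48, edgeR adjusted p = 0.345). The leading of its 8 circRNAs spans 82000 bases of contig NW_021838576.1, from 90080916 to 90162916 on the plus strand, yet holds only 751 spliced bases. The second trpm-like gene (LOC109404338) had 3, 9 and 4 reads in females and 3, 4 and 12 in males, a log2 fold change of 0.39 (SE 0.85).

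Channels for touch and other stimuli gave few reads. The transmembrane channel-like 7 gene (LOC109403365), of a family whose first members serve hearing in vertebrates, gave 1 circRNA with 8, 12 and 6 reads in females and 10, 15 and 15 in males. Its log2 fold change was -0.01 (SE 0.60), the closest to 0 among the tested members. Piezo (LOC109402487), opened by membrane stretch, was untested, with 4, 2 and 2 reads in females and 17, 3 and 9 in males over 7 circRNAs. The 5 cyclic nucleotide-gated genes, whose channels are opened by or respond to cyclic nucleotides, gave 37 reads. The gene with the most of them, alpha-3-like LOC115267649, had 6, 0 and 0 reads in females and 4, 2 and 2 in males, and no other gene of the family had a female read.

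Innexins form the gap junctions of insects, which couple cells electrically. Innexin shaking-B (LOC109432733), which in Drosophila makes the electrical synapses of the giant fibre escape pathway, had more junction reads than any other member, 263 in all. It had 21, 33 and 17 reads in the female libraries and 41, 78 and 73 in the male libraries. Normalised, the female values ran up to 19.6 and the male values were 19.7, 32.4 and 28.4, so the highest female lay just below the lowest male. The mean was 15.2 ± 3.78 in females and 26.8 ± 6.47 in males, a log2 fold change of -0.81 (SE 0.31) with the smallest p of all members, 0.0137, and an edgeR adjusted p of 0.131. An exon-exon loop of 562 spliced bases on contig NW_021838776.1, from 2895269 to 2896017 on the plus strand, held 98.5% of these reads. Its own log2 fold change was -0.74 (SE 0.32, edgeR adjusted p = 0.145). Innexin inx1 (LOC109404190) had 10, 12 and 6 reads in females and 13, 16 and 22 in males, at a log2 fold change of -0.25 (SE 0.54). Within inx1 the leading loop had 12 female and 30 male reads, whereas a smaller exonic loop of 331 spliced bases had 12 female and 6 male reads.

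As single circRNAs, 14 of the 246 members passed the filter, and 0 were called by edgeR, against 6.64% of the 738 circRNAs tested, or 3.79% higher in females and 2.85% higher in males. At an unadjusted p under 0.05 there were 0 higher in females (background 9.62%) and 2 higher in males (background 10%), those of shaking-B and LOC109410160. Without female replicate 3 the circRNA of LOC109410160 was called (adjusted p = 0.0453 by edgeR), and no other member circRNA was called under any alternative. For 1 of the 14, or 7.14%, that of the GABA receptor gene LOC109428423, the libraries were separated with higher values in males, against a background of 14.6%, and for 0 in the other direction, against 12.3%. Of the 14, 9 had a fold change below 0, with a median of -0.62 on the log2 scale, against 50.4% below 0 and a median of -0.01 over all tested circRNAs.

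**Figure D4:**
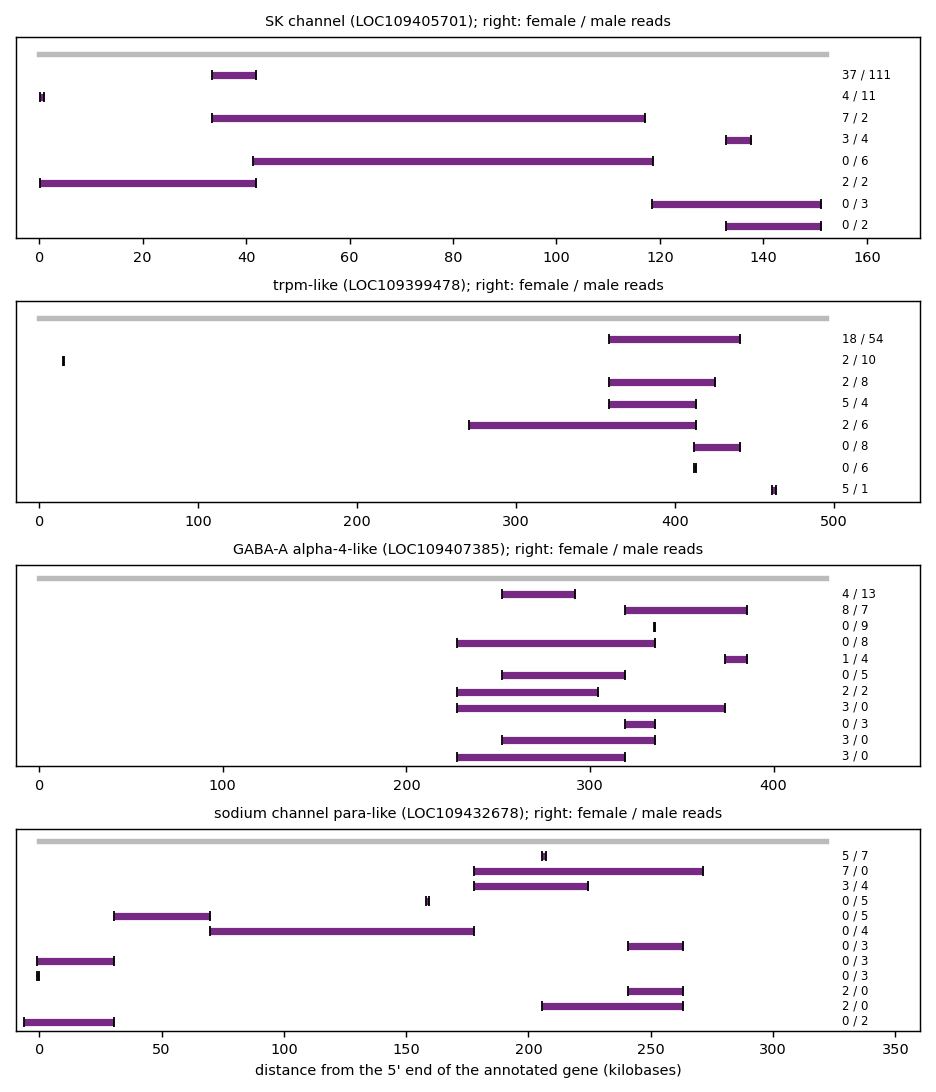
Positions of the circRNAs (purple bars with black ends) of 4 host genes along each annotated gene (grey bar), as distance from its 5′ end in kilobases (x axis). Within a panel each row is 1 circRNA, in order of reads, and the numbers at the right are its female and male reads; the SK channel has 1 dominant loop, with 37 female and 111 male reads, whereas the sodium channel para-like gene has 12 loops of at most 12 reads.

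The map of loops along 4 genes shows both arrangements met in the channel genes. In 53 genes with at least 2 circRNAs, the leading one held over 50% of the reads in 36. Channel genes gave 2.80 circRNAs per gene and other host genes 1.95, and 18.2% of channel genes and 7.21% of other host genes gave 5 or more. Channel genes were also longer, with a median of 174571 bases against 64336 in other host genes. With all host genes ranked into 4 equal groups by length, the longest group had 3.57 circRNAs per channel gene and 2.83 per other host gene. The next group had 2.38 and 2.09, and the group below it 1.27 and 1.65. These are descriptions of the listed loops, with no test.

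**Figure D5:**
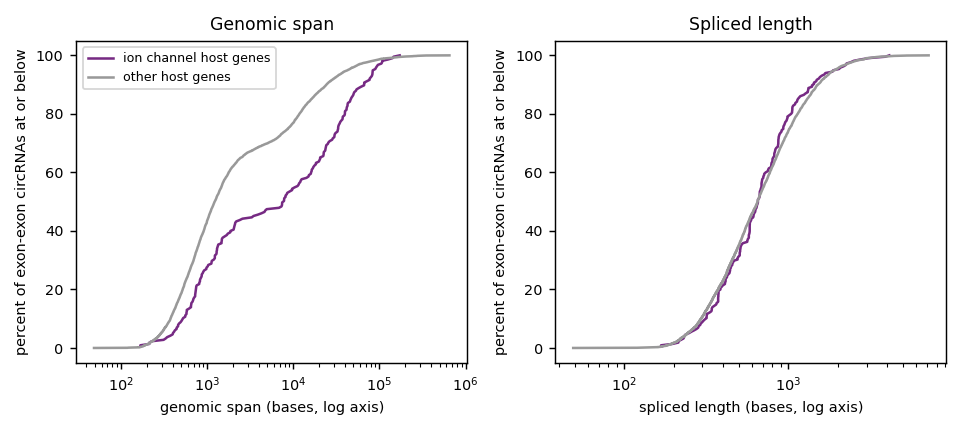
Share of exon-exon circRNAs (y axis, percent) at or below a given length in bases (x axis, log scale), for ion channel host genes (purple, 215 circRNAs) and other host genes (grey). The left panel gives the genomic span, where the channel curve lies to the right, with a median of 7834 against 1228 bases, and the right panel the spliced length, where both medians lie near 650 bases.

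The plot of lengths shows that the channel loops reached over longer stretches of genome but were not longer once spliced. Among exon-exon circRNAs, 45.6% of those of channel genes and 23.1% of those of other host genes spanned over 10000 bases, and 91.6% and 79.5% held an intron between their ends. The median spliced length was 653 bases for channel genes and 650 for other host genes. Exon-exon junctions made up 87.4% of circRNAs in both groups, and 54.9% of channel circRNAs and 42.9% of the others shared a splice site with another loop. Of the channel circRNAs, 12 reached outside the annotated gene.

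Many channel genes shared a product name and loop lengths with another channel gene. The 88 genes carry 61 deposited first product names, of which 19 are held by 2 or more genes. With the ending -like removed and each gene given its most frequent name over its listed products, 51 names remained, 24 of them held by 2 or more genes, and these names are used here. Of 243 channel circRNAs with a spliced length, 68 had a length that recurred to the base in another channel gene of the same name. Equal lengths were found in 8.16% of 490 pairs of circRNAs from different genes of 1 name, but in 0.0809% of 28447 pairs from genes of different names. A loop of 582 bases was listed in all 4 genes named TRP protein, with 60, 12, 36 and 4 reads, and the pair of para genes shared 6 lengths, from 100 to 1434 bases. The KQT member 1-like loop of 653 bases, which carries most of the female reads of LOC109408799, was also listed in LOC109432650 with 6 female and 10 male reads and in LOC115266840 with 0 female and 4 male reads. How reads were divided between such possible copies is not known, so their single values are uncertain.

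Summing the genes of each product name, a step added after the data were seen, left the result without a call. Of 22 channel names tested, 0 were called, against 2.43% higher in females and 3.28% higher in males among 822 names. The 4 TRP protein genes together had 8, 9 and 7 reads in females and 27, 37 and 34 in males, or 5.24 ± 0.255 in females and 13.9 ± 1.30 in males. The female and male sums did not overlap. Their log2 fold change was -1.40 (SE 0.46), with an edgeR adjusted p of 0.0759. The 2 T-type genes together had 1 female and 32 male reads. Of the 22 names, 20 lay below 0, against 54.1% of all names, with a median of -0.45, against -0.08 over all names. The exceptions were KQT member 1, at 0.45, and open rectifier channel 1, at 0.31.

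Host genes matched by words for presynaptic release, ion pumps and carriers, and channel partners were read in the same way. Such lists hold matches outside their theme. Examples are extended synaptotagmin-2-A and syntaxin-6 under presynaptic release and calcium/calmodulin-dependent protein kinase kinases under channel partners. Of 19 presynaptic release genes 9 were tested and 0 called, with a median log2 fold change of -0.98, and their summed level was 55.0 to 60.0 in females and 59.7 to 76.7 in males. Of 29 ion pump and carrier genes 9 were tested, with a median of -0.03, and 1 was called. This sodium/hydrogen exchanger 9B2 (LOC109411550) stood at 9.50 in females and 30.8 in males, a log2 fold change of -1.70 (SE 0.39, edgeR adjusted p = 0.0067). Of 16 genes matched for channel partners 7 were tested and 0 called, with a median of 0.09.

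Genes matched by words for cell types in the body were summed in the same way, and each such list holds matches that are not specific to its cell type, such as non-muscle myosin heavy chain and muscleblind-like protein 1 under muscle, CUGBP Elav-like genes under neurons and arrestin domain-containing genes under photoreceptors. Summed levels of the 14 genes matched for neurons were 38.7 to 49.9 in females and 46.9 to 64.6 in males, those of the 39 matched for muscle 50.3 to 55.9 in females and 65.0 to 71.7 in males, and those of the 13 matched for photoreceptors 3.71 to 14.9 in females and 14.0 to 16.4 in males. The muscle sums did not overlap. In the neuron list the leading genes by reads went opposite ways, each without overlap. Neuroligin-4, Y-linked-like (LOC109427198), with 180 reads, averaged 18.9 in females and 13.5 in males. Neuroligin-3 (LOC109411553), with 156 reads, averaged 7.83 in females and 16.8 in males. Of the 5 tested neuron genes, 4 had a log2 fold change below 0. Both ovary genes that matched, encore and a bicaudal D-related gene, summed to 3.57 to 11.7 in females and 1.44 to 3.11 in males. They went opposite ways. Encore had 28 female and 12 male reads, and its libraries overlapped, whereas the bicaudal D-related gene had 2 female and 5 male reads. The 7 genes matched by words for testis and sperm, spermine synthases among them, summed to 0 to 2.32 in females and 1.44 to 3.73 in males. No gene of these lists was called. No host gene had bruchpilot, vasa, nanos or oskar in its product name, and copies under other names were not searched for. The part of these levels in the lower channel sums of females was not tested.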

How the data were processed

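The authors deposited counts of reads over back-splice junctions, as whole numbers without normalisation. Repeated lines, 1 per protein of a gene, were collapsed from 30393 to 8690 circRNAs, and reads were summed per host gene, leaving out 502 circRNAs without one. The authors' deposited CPM table, normalised by TMM per its title, holds 764 circRNAs, 16 of them from channel genes. Divided by 1 factor per library, 100% of these values gave whole reads within 0.01, equal to the counts. A count test on them, added after the data were seen, called 26 circRNAs higher in females and 21 in males, with 0 channel circRNAs. Bowtie2 2.1.0 appears in the submitters' processing notes. Which caller, build and annotation were used is not given in the sources used here. Positions and spliced lengths are the authors' values, and it was not settled if starts are 0-based or 1-based.

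Counts were tested in edgeR 4.0.16 and R 4.3.3 over all host genes, and over all circRNAs, with TMM factors, filterByExpr (minimum count 5, total 15), the quasi-likelihood F test of sex, Benjamini-Hochberg adjustment and a threshold of 0.05. SEs were derived from each log2 fold change and its F statistic. Values are mean ± SD of 3 libraries. Series design gives the pools as biological replicates. With 3 libraries per sex an exact permutation test cannot go below p = 0.1. Floors cover counting error only. DESeq2 1.42.0, other scalings and filters, a block for replicate number and fits without each library were alternatives. Figures were drawn with matplotlib 3.10.9.

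Members, families, gene lists and alternatives were chosen with earlier results of these data known, among them that neuronal host genes had lower values in females, so the direction of the channel sums is no independent support for it. Lists were matched by words in product names. Named genes were the 15 with the most reads, those called, the 5 with the smallest p per direction, the gene with the most reads in each family and any with 10 or more reads and all of them in 1 sex. Others named complete a family or a small count and were chosen after their values were seen. Of the 88 gene identifiers, 50 matched the RefSeq gene table of assembly AalbF5, whose coordinates were not used.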

Additional observations from a re-analysis of the deposited data

How the results depend on the processing

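The 0 calls among channel host genes held under every scaling, filter and test, with the replicate block and without each library. The lowest adjusted p of a channel host gene was 0.131, and over the fits that left out 1 library it ran from 0.0679 (without female replicate 3) to 0.415 (without male replicate 2). Calls of channel circRNAs, higher in males, ranged from 0 to 1 without each library. Over all host genes, calls higher in females, 22 in the report, were 36 with DESeq2 and 13 without a filter on low counts, and ranged from 6 to 26 without each library. Calls higher in males, 20 in the report, ranged from 6 to 29. Both lowest counts were without male replicate 2. The median log2 fold change of tested channel genes, -0.33, was -0.77 without a filter (88 genes), -0.52 with a minimum count of 10 and total of 30 (11 genes) and -0.62 with the replicate block, and ranged from -0.69 to -0.15 without each library. The cause was not tested. The difference in share, -0.624 percentage points, ran from -0.755 to -0.513 over the other denominator, the choices of circRNAs and the values without each library, and was -0.472 for tested genes only and -0.366 without the 5 genes with the most reads, settings added after the data were seen.

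Same-numbered libraries did not deviate together (correlations of -0.0133 to 0.0472 over host genes), and only female replicate 1 correlated best with its own number. That gave no sign of pairing by number, but at such low counts it cannot exclude it. The replicate block changed no call of a channel gene and called 28 host genes higher in females and 24 in males. Over named features and settings, 42 fold changes turned sign, 339 kept their sign and side of the threshold, and 1 became a call. Signs turned for transmembrane channel-like 7 (LOC109403365) at 0.013 with relative log expression factors, 0.016 with totals from the CPM table, 0.013 with DESeq2 and 0.034 with the stricter filter. Without a filter they turned for LOC109415948 (-0.10), for LOC109622845 (-0.0075) and, as circRNAs, for the leading loops of LOC115263095 (-0.062), LOC109403365 (-0.28), LOC109415948 (-0.022) and LOC109622845 (-0.15). With the replicate block they turned for LOC109622845 (-0.092) and for the loops of LOC109415948 (-0.45) and LOC109622845 (-0.40).

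Without each library, host gene values ranged from -0.23 to 0.75 for LOC115263095, -0.90 to 0.088 for LOC109407385, -0.28 to 0.086 for LOC109403365, -0.60 to 0.45 for LOC115266332, -0.47 to 0.32 for LOC109421420, -0.36 to 0.25 for LOC109415948, -0.15 to 1.03 for LOC109404338, -0.40 to 0.55 for LOC109409153, -0.99 to 0.71 for LOC109622845 and -2.81 to 0.16 for LOC115263250. Those of leading loops ranged from -0.69 to 0.58 for LOC115263095, -0.27 to 0.12 for LOC109403365, -0.23 to 0.68 for LOC109421420, -2.52 to 0.74 for LOC109415948 and -2.63 to 0.70 for LOC109622845. Depth limits the rest. Too few reads for a test were found in 61 of 88 channel genes, and with a median SE of 0.75 a log2 fold change of that size in 1 gene lies within its error.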
